A study of Mus musculus with 20 samples.

Results

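The 10 genes described here encode 7 receptors of the tumour necrosis factor (TNF) receptor superfamily (Tnfrsf4, Tnfrsf9, Tnfrsf18, Tnfrsf1b, Tnfrsf8, Tnfrsf25 and Cd27) and 3 ligands of the TNF superfamily (Tnfsf8, Tnfsf11 and Cd40lg). They were chosen by symbol, and all 10 were found in both RNA-seq count tables of the study, among 16784 genes in the table of mesenteric lymph nodes (mLNs) and 16740 in the table of pooled spleen and peripheral lymph nodes (pLNs). All 10 passed the filter of at least 1 read over a table. Levels are read counts relative to library size (CPM), scaled by the trimmed mean of M-values (TMM). A gene was called where the adjusted p from edgeR's quasi-likelihood test was at most 0.05 and the fold change at least 1.5. Adjusted p-values throughout are Benjamini-Hochberg values over all genes of a table, log2 fold changes are given ± their standard error (SE), and levels with ± as mean ± SD.

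Ligands of the TNF superfamily are mostly membrane-bound trimers that cluster their receptors, and the receptors recruit TRAF adaptor proteins or, where they carry a death domain, TRADD and FADD. Signalling runs mainly to NF-kB and MAP kinases and promotes survival, division or death depending on receptor and cell. Regulatory T (Treg) cells are known for high surface levels of OX40 (Tnfrsf4), GITR (Tnfrsf18), 4-1BB (Tnfrsf9) and TNFR2 (Tnfrsf1b), whereas CD40 ligand (Cd40lg) is a signal of helper T cells to B cells and dendritic cells.

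The samples were T cells of C57BL/6 mice at 14 weeks. WT mice carried Foxp3Cre, a YFP-Cre fusion expressed from the Foxp3 locus. DKO mice were Tet2/3 fl/fl Foxp3Cre and lost the methylcytosine dioxygenases TET2 and TET3 in cells that express Foxp3. Treg cells were sorted as CD4+YFP+ and Foxp3- cells as CD4+YFP-, giving 4 groups per tissue with 3 replicates each in mLNs and 2 each in spleen and pLNs. Cre is made in cells that express Foxp3, so the Foxp3- cells of DKO mice may include cells that expressed it earlier, whose number was not analysed here. The DKO mice of the spleen and pLN table were, as the study describes, littermates that differed in the severity of splenomegaly. The study also describes inflammatory disease in DKO mice, with enlarged mLNs and activated Treg and other T cells. Effects of the deletion and of the disease cannot be told apart in these groups, and DKO against WT below covers both.

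Counted reads ran from 9998478 to 15449158 per library in mLNs and from 13525932 to 15253141 in spleen and pLNs, so that 3 reads were worth 0.172 to 0.299 CPM. Tet2 and Tet3 were not called between genotypes in either cell type or tissue. Tet3 was at 69.0 to 86.5 CPM in WT and 48.4 to 73.3 CPM in DKO Treg cells of mLNs, and at 30.6 to 31.0 against 38.1 to 61.0 CPM in those of spleen and pLNs. Tet2 was at 2.08 and 1.11 CPM in WT against 8.01 and 2.05 CPM in DKO Treg cells of spleen and pLNs, and at 10.4 to 10.8 against 7.69 to 12.8 CPM in those of mLNs. In the spleen and pLN libraries labelled DKO Treg, both genes had a higher mean than in WT (log2 fold change 1.66 ± 0.59 for Tet2 and 0.69 ± 0.21 for Tet3) and an unadjusted p under 0.05, with edgeR adjusted p-values of 0.144 and 0.101. Counts over whole genes do not test the deletion of part of a gene. Foxp3 was at 153 to 419 CPM in the 10 Treg libraries and at most 2.75 CPM in the 10 Foxp3- libraries. In mLN Treg cells Il2ra was at 703 to 797 CPM in WT against 240 to 450 CPM in DKO, and 1 of 4 Treg markers was called lower. The 4 summed to 1657 to 1832 CPM in WT and 1157 to 1492 CPM in DKO. In Treg cells of spleen and pLNs none was called, with Foxp3 at 153 to 165 CPM in WT against 235 to 419 CPM in DKO. A pair of DKO Foxp3- libraries stood apart: mLN replicate 2, with Ctla4 at 148 CPM against 44.0 and 101 CPM in its group, and spleen and pLN replicate 1, with Ctla4 at 344 against 50.4 CPM and Ikzf2 at 178 against 45.4 CPM. Foxp3 was at 0.211 and 0.251 CPM in these 2 libraries. Calls and printed differences that moved most with them are given with and without them. The 2 DKO Treg libraries of spleen and pLNs also differed from each other, with Foxp3 at 419 and 235 CPM and Cd22 at 43.8 and 10.8 CPM in replicates 1 and 2. Summed B cell markers (8 genes) stayed at or below 59.1 CPM and summed myeloid markers (8 of 10 in the mLN table, 10 in the other) at or below 54.7 CPM in all libraries. Cd8a stayed at or below 0.579 CPM. The NK-associated Klrb1c was at 5.02 to 8.19 CPM in WT and 72.3 to 155 CPM in DKO mLN Treg cells, and at 6.06 to 7.30 against 86.4 to 110 CPM in those of spleen and pLNs. The NK-defining Ncr1 stayed at or below 0.976 CPM in mLNs, but was called higher in DKO in both cell types of spleen and pLNs, at 0.0696 to 0.0769 CPM in WT against 2.25 to 2.52 CPM in DKO Treg cells and 0.456 to 0.482 against 2.07 to 5.85 CPM in Foxp3- cells. In mLN Treg cells 4 of 8 myeloid, 3 of 8 B cell and 1 of 5 CD8 and NK markers were called higher in DKO, with Cd14 and Itgax at 0 in all WT libraries, while the B cell marker Cd79b (26.4 to 34.2 against 5.45 to 16.4 CPM) and the CD8 marker Cd8b1 (15.7 to 20.5 against 2.80 to 3.78 CPM) were called lower. In Treg cells of spleen and pLNs 2 of 10 myeloid, 1 of 8 B cell and 2 of 5 CD8 and NK markers were called higher and 1 B cell marker (Cd79b) lower. The part of these transcripts in the results below was not tested. In bulk RNA, fewer cells expressing a gene and less RNA per cell cannot be told apart.

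Of the 10 genes, 7 lie on chromosome 4 (NCBIM37 assembly, the mm9 build of the count files, with GENCODE M1 annotation). Tnfsf8 is at chr4:63492342-63522381 on the minus strand. Tnfrsf1b (chr4:144803366-144836773) and Tnfrsf8 (chr4:144857040-144905067) are minus-strand neighbours with 20266 bp between them. Tnfrsf9 is at chr4:150288671-150320211 and Tnfrsf25 at chr4:151490043-151494228, both on the plus strand. Tnfrsf4 (chr4:155387952-155390721) and Tnfrsf18 (chr4:155400273-155403004) are plus-strand neighbours with 9551 bp between them. The remaining 3 are Cd27 (chr6:125182640-125187028, minus), Tnfsf11 (chr14:78677252-78707850, minus) and Cd40lg (chrX:54465320-54477219, plus).

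Promoter windows of 300 bases (250 before to 50 after the start of transcription) were taken from RefSeq annotation on GRCm38.p6, which listed 11 windows for 9 of the 10 genes, Cd40lg being the one without. Each window matched NCBIM37 at exactly 1 place, whose coordinates are given. Windows of the 4 genes that were called between genotypes in mLNs are printed 5′ to 3′ along the gene, with capitals marking letters that match 1 of 4 searched motifs on either strand: GGGNN followed directly by TTTCC (NF-kB type), TGANTCA (AP-1 type), TTCNNNGAA (STAT type) and TGTTTAC (forkhead type).
Tnfrsf9, chr4:150301858-150302157, plus: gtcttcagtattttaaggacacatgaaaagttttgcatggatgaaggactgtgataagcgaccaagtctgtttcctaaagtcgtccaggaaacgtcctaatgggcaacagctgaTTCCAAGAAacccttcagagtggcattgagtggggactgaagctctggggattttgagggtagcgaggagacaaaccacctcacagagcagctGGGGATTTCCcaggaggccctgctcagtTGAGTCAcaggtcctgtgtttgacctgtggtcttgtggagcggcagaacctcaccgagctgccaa
Tnfrsf8, chr4:144905018-144905317, minus: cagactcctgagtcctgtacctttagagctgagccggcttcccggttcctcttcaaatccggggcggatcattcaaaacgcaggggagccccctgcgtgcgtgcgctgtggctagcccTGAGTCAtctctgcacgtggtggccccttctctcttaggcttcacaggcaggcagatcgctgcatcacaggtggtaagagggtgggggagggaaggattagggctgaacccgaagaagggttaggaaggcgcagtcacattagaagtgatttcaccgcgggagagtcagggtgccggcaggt
Tnfrsf4, chr4:155387554-155387853, plus: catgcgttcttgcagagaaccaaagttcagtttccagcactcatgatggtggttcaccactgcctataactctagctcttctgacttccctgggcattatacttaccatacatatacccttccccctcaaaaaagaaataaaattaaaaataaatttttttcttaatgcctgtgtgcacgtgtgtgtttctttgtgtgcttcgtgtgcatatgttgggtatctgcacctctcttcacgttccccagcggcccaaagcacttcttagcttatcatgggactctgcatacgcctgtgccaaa
Tnfsf8, chr4:63522269-63522568, minus: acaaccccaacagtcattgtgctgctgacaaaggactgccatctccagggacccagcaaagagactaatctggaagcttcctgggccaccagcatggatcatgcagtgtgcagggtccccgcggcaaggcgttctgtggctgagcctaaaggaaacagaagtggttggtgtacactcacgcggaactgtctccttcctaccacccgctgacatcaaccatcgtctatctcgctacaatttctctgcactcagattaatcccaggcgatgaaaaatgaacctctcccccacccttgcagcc
The Tnfrsf9 window, the downstream one of 2 listed for this gene, held a STAT type match from position -136, an NF-kB type match from -43 and an AP-1 type match from -15, none of them overlapping. The upstream window of Tnfrsf9 (chr4:150294014-150294313), with 4 CpG dinucleotides, held none of the 4 patterns. Tnfrsf8 held an AP-1 type match from position -132. The windows of Tnfrsf4 and Tnfsf8 held none of the 4 letter patterns. Among the 32851 windows of all genes, 1.63% held the NF-kB type, 7.81% the AP-1 type, 8.30% the STAT type and 3.65% the forkhead type pattern. Of the 11 windows of the 10 genes, 2 held the NF-kB type, 2 the AP-1 type, 4 the STAT type and 0 the forkhead type. CpG dinucleotides, the sites at which TET enzymes oxidise methylcytosine, numbered 6 in the printed window of Tnfrsf9, 15 in that of Tnfrsf8, 6 in that of Tnfrsf4 and 9 in that of Tnfsf8, beside a median of 7 over all windows (quartiles 3 and 20). These matches are descriptions of the sequence. No methylation or binding data were analysed here.

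Levels can be compared between genes only per length, for which the deposited TPM values were used. In WT mLN Treg cells Tnfrsf4 had the highest TPM of the 10 genes, with a mean of 395 (range 380.4 to 422), followed by Tnfrsf18 at 379.7 (365 to 388), whose range overlapped that of Tnfrsf4. Cd27 (309.6 TPM), Tnfrsf1b (216), Tnfrsf9 (154), Tnfsf8 (74.4) and Tnfsf11 (58.4) came next, each above the next in all 3 replicates. Cd40lg (42.6 TPM) and Tnfrsf25 (40.7) overlapped, and Tnfrsf8, the CD30 receptor, was lowest at 15.3. The order in WT Foxp3- cells of mLNs differed: Cd27 led at 198 TPM, Cd40lg was second at 141, Tnfrsf4 was sixth at 38.6 and Tnfrsf8 was again last at 1.39. In DKO mLN Treg cells the ranges of neighbours in the order overlapped, except between Cd27 and Tnfrsf1b and between Tnfsf8 and Tnfsf11. Tnfrsf4 was first at 671 TPM (540.4 to 846) and Tnfrsf9 followed Tnfrsf18 at 339 (253 to 408), a range that overlapped those of Tnfrsf18 and Cd27. In DKO mLN Foxp3- cells the ligand Tnfsf8 was first at 197 TPM (86.9 to 297), a range that held all values of Cd27, Cd40lg and Tnfrsf18 and part of those of Tnfrsf4. In spleen and pLNs Tnfrsf4 was highest in WT Treg (637 TPM), DKO Treg (933) and, by its mean, DKO Foxp3- cells (419, from 127 to 711), and Cd27 was highest in WT Foxp3- cells (186). In the DKO Foxp3- cells that place rested on replicate 1, since in replicate 2 Cd27 (163 TPM) and Tnfrsf18 (139 TPM) were above Tnfrsf4 (127 TPM). Libraries of the 2 tables came from separate count tables and were not tested against each other.

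**Figure D1:**
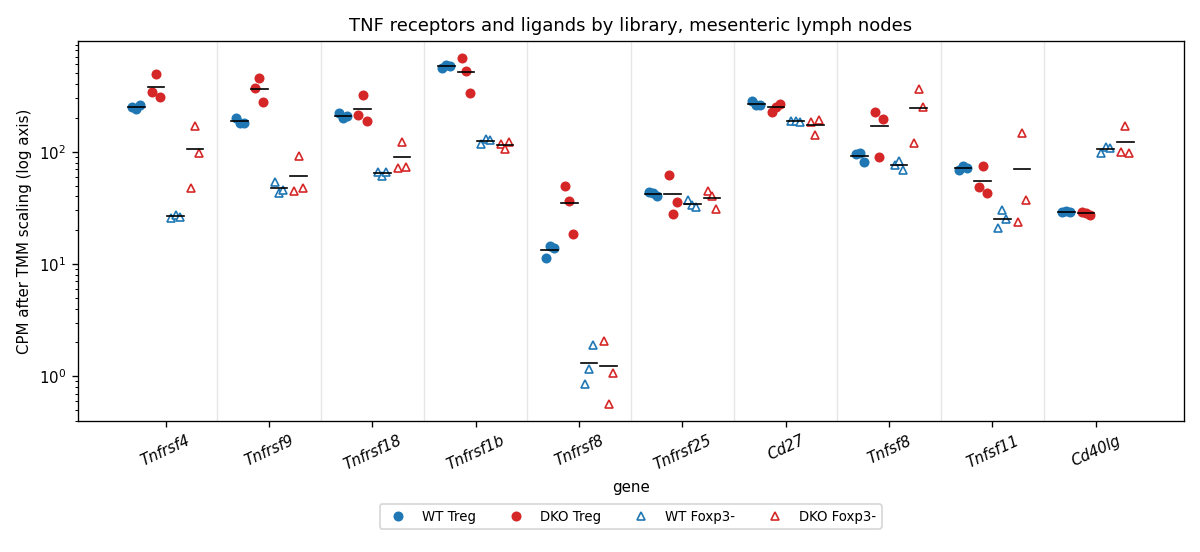
CPM after TMM scaling (log axis) of the 10 genes in each of the 12 mLN libraries, with circles for Treg and triangles for Foxp3- cells, blue for WT and red for DKO, and a black line at the group mean. For Tnfrsf4, Tnfrsf9 and Tnfsf8 the DKO replicates lie further apart than the WT replicates in both cell types, whereas Cd40lg in Treg cells lies close together in both genotypes. Tnfrsf8 in Foxp3- cells lies between 0.563 and 2.04 CPM.

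The loss of TET2 and TET3 in Treg cells was addressed first by comparing DKO with WT Treg cells of mLNs. Tnfrsf8 and Tnfrsf9 rose in DKO Treg cells and none of the 10 genes fell, so that 2 of 10 were called where 11.9% of all tested genes were called (8.5% higher and 3.43% lower). Tnfrsf8 encodes CD30, a receptor of activated T cells. Its level was 11.3, 14.4 and 13.9 CPM in the 3 WT libraries and 50, 36.5 and 18.6 CPM in the 3 DKO libraries. All DKO libraries were above all WT libraries, with DKO replicate 3 nearest to WT. The log2 fold change was 1.41 ± 0.34, a 2.66-fold rise (edgeR adjusted p = 0.0124). Tnfrsf9 encodes 4-1BB, which is induced by T cell receptor stimulation and present on activated Treg cells. It was at 202, 181 and 180.4 CPM in WT against 369, 454 and 275 CPM in DKO Treg cells, without overlap. Its log2 fold change was 0.96 ± 0.23, or 1.95-fold (edgeR adjusted p = 0.0124). The calls were lost without some libraries. The adjusted p of Tnfrsf8 was 0.0613 without WT replicate 1 and 0.0597 without DKO replicate 1, and that of Tnfrsf9 was 0.0518, 0.0543 and 0.053 without WT replicate 2, WT replicate 3 and DKO replicate 2.

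The other receptors were not called in DKO mLN Treg cells. Tnfrsf4, which encodes the costimulatory receptor OX40, was at 249, 241 and 259.7 CPM in WT against 339, 489 and 306 CPM in DKO, and all DKO values were above all WT values. Its log2 fold change of 0.59 ± 0.31 did not pass (edgeR adjusted p = 0.207), but it was called in a fit of the 2 groups alone (0.0128). With Tnfrsf8 and Tnfrsf9 it made 3 of 10 genes whose genotypes did not overlap, beside 40.5% of all genes. Tnfrsf18, whose product GITR is a costimulatory receptor abundant on Treg cells, averaged 209.7 ± 10.8 CPM in WT and 240.5 ± 72.5 CPM in DKO (SD, n = 3). Tnfrsf1b, the gene of TNFR2, was at 563, 598 and 583 CPM in WT against 687, 529.6 and 332 CPM in DKO, so its DKO values lay on both sides of WT. Tnfrsf25, the gene of the death-domain receptor DR3, was at 44.1, 42.9 and 40.2 CPM in WT against 61.9, 27.7 and 35.9 CPM in DKO. Cd27, which encodes the receptor for CD70, averaged 268 ± 13.1 and 249 ± 20.8 CPM.

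None of the 3 ligands was called in DKO mLN Treg cells. Tnfsf8, the gene of the CD30 ligand, was at 95.1, 96.8 and 81 CPM in WT against 224, 89.1 and 195 CPM in DKO Treg cells, where replicates 1 and 3 were above WT and replicate 2 was within it. The log2 fold change was 0.90 ± 0.35 with an edgeR adjusted p of 0.0907, and it was called in the fit of the 2 groups alone (0.0305). Without DKO replicate 2 it was 1.20 and was called (adjusted p = 0.0229). Tnfsf11, which encodes RANKL, a ligand required for osteoclast formation and lymph node development, averaged 71.5 ± 2.33 CPM in WT and 55 ± 16.6 CPM in DKO. Cd40lg varied least, with 28.8, 29.6 and 29.2 CPM in WT against 29, 28.3 and 27.3 CPM in DKO. The median log2 fold change over the 10 genes was 0.09, beside 0.00 over all tested genes.

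In Foxp3- cells of mLNs a different pair was called: Tnfrsf4 and Tnfsf8 rose in cells from DKO mice, 2 of 10 genes beside 3.43% of all tested genes (3.12% higher and 0.304% lower), and none fell. Tnfrsf4 was at 25.8, 27.5 and 26.4 CPM in the 3 WT libraries and 48, 170.2 and 98 CPM in the 3 DKO libraries. Every DKO library was above every WT library, and the DKO libraries were spread more widely than the WT libraries. The log2 fold change was 1.99 ± 0.33, or 3.97-fold (edgeR adjusted p = 0.00877). Tnfsf8 was at 76.6, 82.8 and 69 CPM in WT against 119, 365 and 251 CPM in DKO, also without overlap. Its log2 fold change was 1.69 ± 0.35, or 3.22-fold (edgeR adjusted p = 0.0216). Both genes stayed called without DKO replicate 2, the library that stood apart, at log2 fold changes of 1.46 for Tnfrsf4 and 1.29 for Tnfsf8. Both calls were lost in a fit of the 2 groups alone (edgeR adjusted p = 0.0999 and 0.102) and with limma on TPM (0.0863 and 0.137), and that of Tnfsf8 with edgeR's outlier-robust prior on the spread (0.081). In the whole table these fits called 2 of 15795, 20 of 16784 and 323 of 16784 genes, beside 575 of 16784 in the main fit. The Treg markers Ctla4 and Ikzf2 were also called higher in these cells, and the sum of the 4 Treg markers ran from 66.1 to 76.0 CPM in WT and from 106 to 226 CPM in DKO, while Foxp3 was at or below 2.75 CPM in both genotypes and Il2ra was not called. Among markers of other cells, Klrb1c was called higher and Cd8b1 lower, and 6 of 8 B cell markers, none of them called, had an unadjusted p under 0.05 (the 8 summed to 5.39 to 6.95 CPM in WT against 9.14 to 26.2 CPM in DKO). The part of the cells that carry these transcripts was not tested. Leaving out 1 WT replicate ended both calls for replicates 1 (adjusted p = 0.0586 for Tnfrsf4 and 0.101 for Tnfsf8) and 2 (0.0538 and 0.0887), and that of Tnfsf8 for replicate 3 (0.0991).

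Among the genes not called in mLN Foxp3- cells, Tnfsf11 rested on 1 library: it was at 20.9, 30 and 25.2 CPM in WT against 23.5, 148 and 37.3 CPM in DKO, a log2 fold change of 1.46 ± 0.50 (edgeR adjusted p = 0.13) that was 0.26 without DKO replicate 2. Without DKO replicate 1 it was 1.88 and was called (adjusted p = 0.00815). Cd40lg was highest in the same library, at 100.4, 171 and 98.1 CPM in DKO against 98.1, 109.6 and 108 CPM in WT. Tnfrsf9 was at 44.4, 90.8 and 47.9 CPM in DKO and 54.3, 42.6 and 45.6 CPM in WT. Tnfrsf18 was at 71.8, 123 and 72.7 CPM in DKO and 66.5, 61.4 and 65.6 CPM in WT. Both had their highest value in the same DKO library as well. Tnfrsf18 did not overlap between genotypes, which made 3 of 10 genes beside 20.9% of all genes. Its log2 fold change of 0.47 ± 0.21 had an unadjusted p of 0.0454 with an adjusted p of 0.255 in edgeR, and was 0.18 without DKO replicate 2. Tnfrsf8 was low, with 8 to 23 reads per library across the 6 Foxp3- libraries of mLNs. Tnfrsf1b averaged 126 ± 6.48 CPM in WT and 115 ± 9.2 CPM in DKO, Cd27 186 ± 1.45 and 173 ± 27.6 CPM, and Tnfrsf25 34.3 ± 2.59 and 38.7 ± 6.97 CPM (SD, n = 3).

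**Figure D2:**
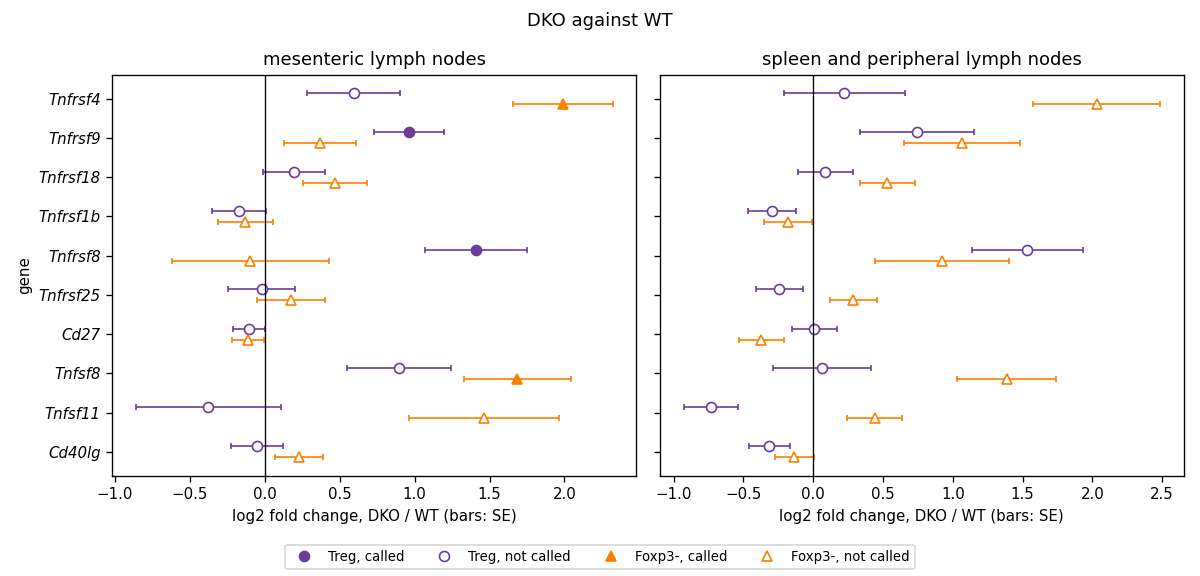
Log2 fold change of DKO over WT (x axis, bars are SE) for the 10 genes (y axis) in Treg cells (purple circles) and Foxp3- cells (orange triangles), mLNs on the left and spleen and pLNs on the right, with filled symbols for called genes. Filled symbols are seen for Tnfrsf8 and Tnfrsf9 in mLN Treg cells and for Tnfrsf4 and Tnfsf8 in mLN Foxp3- cells, and none in spleen and pLNs.

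In spleen and pLNs none of the 10 genes was called in DKO against WT Treg cells by edgeR, where 1.74% of all tested genes were called (1.14% higher and 0.605% lower). By unadjusted p under 0.05 there were 2 (Tnfrsf8 and Tnfsf11), beside 20.4% of all tested genes. DESeq2 called 1 (Tnfrsf8), where it called 648 of all 16357 tested genes. Tnfrsf8 was at 16.9 and 12 CPM in the 2 WT libraries against 51.2 and 32.5 CPM in the 2 DKO libraries. Its log2 fold change of 1.53 ± 0.40 had an edgeR adjusted p of 0.0707, and 0.0398 with DESeq2. Tnfsf11 was at 95.2 and 81.2 CPM in WT against 47.3 and 59 CPM in DKO, without overlap (log2 fold change -0.73 ± 0.20, edgeR adjusted p = 0.0759), and it was called without DKO replicate 2, at -0.90 (adjusted p = 0.049). Leaving out a library in this tissue leaves 1 in its group, whose spread is then taken from the other groups. Tnfrsf9 was at 378 and 309 CPM in WT against 585 and 565 CPM in DKO (log2 fold change 0.74 ± 0.41, adjusted p = 0.334). Tnfrsf4, at 506 and 497 CPM in WT, was at 542 and 628 CPM in DKO. Tnfrsf1b was at 712 and 637 CPM in WT against 579 and 519 CPM in DKO, Tnfrsf25 at 47.3 and 45.7 against 35.7 and 43 CPM and Cd40lg at 24.5 and 26.7 against 21.4 and 19.7 CPM. In each of these 3 both DKO libraries lay below both WT libraries without a call. In all, 7 of 10 genes did not overlap between genotypes, beside 54.2% of all genes in this 2 against 2 comparison. Tnfrsf18 (336 and 323 CPM in WT, 326 and 374 in DKO), Cd27 (318 and 340.2 against 319 and 344) and Tnfsf8 (88.2 and 88.7 against 75.2 and 109.6) overlapped.

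In Foxp3- cells of spleen and pLNs the values turned on DKO replicate 1. None of the 10 genes was called by edgeR, beside 0.819% of all tested genes (0.77% higher and 0.0489% lower). An unadjusted p under 0.05 was found for 6, beside 12.9% of all tested genes. DESeq2 called 2 (Tnfrsf4 and Tnfsf8), where it called 376 of all 16357 tested genes. Tnfrsf4 was at 67.9 and 61.8 CPM in the 2 WT libraries against 428 and 102 CPM in DKO replicates 1 and 2. Both DKO libraries were above both WT libraries, and replicate 1 lay nearer to the WT Treg libraries (506 and 497 CPM) than to replicate 2. The log2 fold change was 2.03 ± 0.45 with an edgeR adjusted p of 0.0659. Tnfsf8 was at 142 and 119 CPM in WT against 501 and 182 CPM in DKO (log2 fold change 1.39 ± 0.35, adjusted p = 0.0969). Tnfrsf9 was at 71 and 43.9 CPM in WT against 186 and 54.4 CPM in DKO, so that replicate 2 was within the WT range (log2 fold change 1.07 ± 0.42, adjusted p = 0.286). Without DKO replicate 1 the log2 fold change was 0.66 for Tnfrsf4 (adjusted p = 0.133), 0.47 for Tnfsf8, -0.08 for Tnfrsf9, -0.25 for Tnfrsf8 and 0.20 for both Tnfrsf18 and Tnfsf11. Without DKO replicate 2 it was 2.72 for Tnfrsf4, 1.94 for Tnfsf8, 1.70 for Tnfrsf9, 1.54 for Tnfrsf8, 0.80 for Tnfrsf18 and 0.65 for Tnfsf11. These values rest on 1 library for DKO. The sum of the 4 Treg markers was 118 and 130 CPM in WT, 558 CPM in DKO replicate 1 and 127 CPM in DKO replicate 2, with Foxp3 at 0.251 and 0.741 CPM in the DKO libraries. The summed markers of other cells were higher in both DKO libraries: myeloid markers came to 9.65 to 10.2 CPM in WT against 27.3 to 35.0 CPM in DKO, and B cell markers to 13.2 to 16.3 against 22.0 to 23.9 CPM. An unadjusted p under 0.05 was found for 7 of 10 myeloid and 5 of 8 B cell markers, none of them called, and Ncr1 was called. Their part in these values was not tested.

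The other genes of spleen and pLN Foxp3- cells follow. Tnfrsf18 was at 90.3 and 80.9 CPM in WT against 149 and 98.5 CPM in DKO, Tnfsf11 at 58.6 and 45.7 against 81.7 and 59.9 CPM, and Tnfrsf25 at 41.7 and 41.5 against 57.3 and 44.1 CPM, each without overlap and higher in DKO. The log2 fold change was 0.53 ± 0.20 for Tnfrsf18 and 0.44 ± 0.20 for Tnfsf11. Cd27 was lower in both DKO libraries (144 and 180.1 CPM) than in both WT libraries (216 and 203 CPM), at a log2 fold change of -0.37 ± 0.16 with an edgeR adjusted p of 0.37. Cd40lg was at 98.7 and 99.4 CPM in WT against 85.9 and 94.6 CPM in DKO. Tnfrsf8 had 2.2 and 1.85 CPM in WT against 5.9 and 1.7 CPM in DKO (log2 fold change 0.92 ± 0.48), and Tnfrsf1b 199.8 and 171 against 150.5 and 177 CPM. The genotypes did not overlap for 7 of 10 genes, beside 41.9% of all genes.

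**Figure D3:**
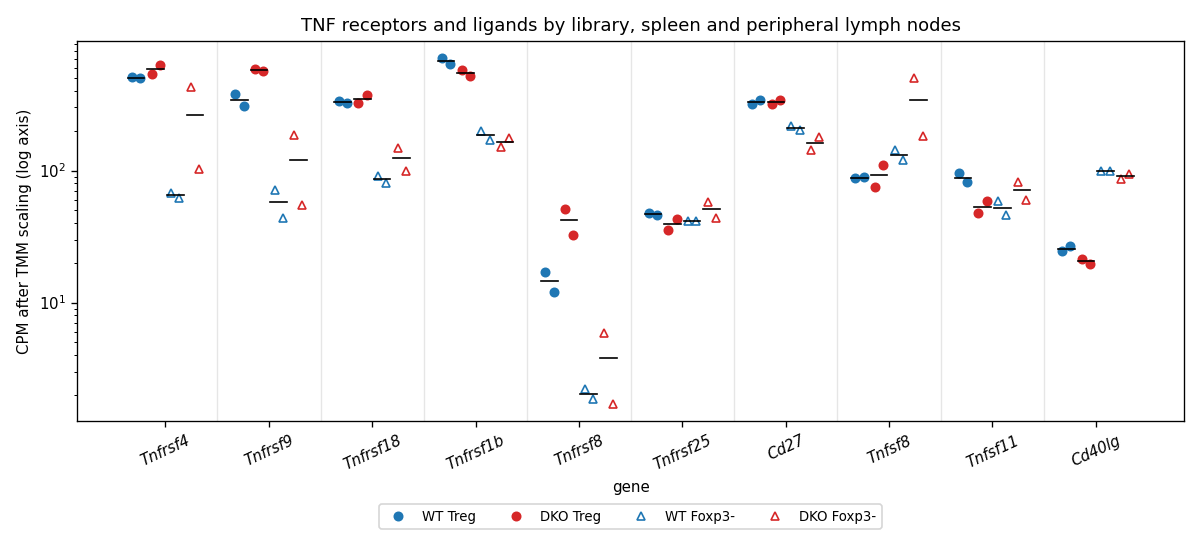
CPM after TMM scaling (log axis) of the 10 genes in each of the 8 libraries of spleen and pLNs, with symbols and colours as in the plot for mLNs. For Tnfrsf4, Tnfsf8 and Tnfrsf9 the red triangles of DKO Foxp3- cells lie far apart, with replicate 1 the higher.

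The cell types were then compared within each genotype. In WT mLNs 5 receptors were higher in Treg cells, Cd40lg was lower, and 6 of 10 genes were called beside 10.1% of all tested genes (6.91% higher and 3.14% lower). Tnfrsf8 was 10.3-fold higher (log2 fold change 3.36 ± 0.43) and Tnfrsf4 9.4-fold higher (3.23 ± 0.34). Tnfrsf1b was 4.63-fold (2.21 ± 0.19), Tnfrsf9 3.96-fold (1.99 ± 0.24) and Tnfrsf18 3.25-fold higher (1.70 ± 0.21). The edgeR adjusted p-values of these 5 ranged from 9.10e-06 to 2.07e-04. Cd40lg, the helper ligand, had a log2 fold change of -1.85 ± 0.17 (edgeR adjusted p = 1.68e-05). Cd27 passed the test (adjusted p = 0.00531) at a log2 fold change of 0.52 ± 0.11, under the fold minimum. Tnfsf11, at a log2 fold change of 1.49 ± 0.50, was not called (adjusted p = 0.0626), but was called in a fit with a term for each genotype and replicate number (edgeR adjusted p = 0.0101) and in the fit with the replicate number as a block (0.0216). Tnfrsf25 and Tnfsf8 were not called. For 9 of 10 genes the cell types did not overlap, beside 41.5% of all genes.

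In DKO mLNs 6 genes were called again, the same 5 receptors higher and Cd40lg lower in Treg cells, beside 11.2% of all tested genes (7.75% higher and 3.49% lower), and 7 of 10 did not overlap beside 27.4%. Tnfrsf8 stood 29.3-fold higher (log2 fold change 4.87 ± 0.44), Tnfrsf9 5.98-fold (2.58 ± 0.25), Tnfrsf1b 4.49-fold (2.17 ± 0.19), Tnfrsf4 3.58-fold (1.84 ± 0.32) and Tnfrsf18 2.7-fold (1.43 ± 0.21). Their adjusted p-values in edgeR ranged from 1.79e-05 to 0.00161, and Cd40lg had a log2 fold change of -2.13 ± 0.17 (adjusted p = 1.03e-05). Tnfsf11 had a log2 fold change of 1.49 in WT, and in DKO the 3 Foxp3- libraries (23.5, 148 and 37.3 CPM) enclosed the Treg libraries (48.3, 74 and 42.9 CPM). Without DKO Foxp3- replicate 2 it was called higher in DKO Treg cells, at 0.83. Tnfsf8 was at a log2 fold change of -0.53 ± 0.34 (adjusted p = 0.333) and was called without DKO Foxp3- replicate 1, at -0.89, whereas it was -0.16 without replicate 2. Cd27 again lay under the fold minimum, at 0.53 ± 0.11 with an adjusted p of 0.00422, and passed it without DKO Treg replicate 1 (0.59) or DKO Foxp3- replicate 3 (0.62).

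Whether the genotype effect differed between Treg and Foxp3- cells was tested as an interaction. In mLNs none of the 10 genes passed in edgeR, beside 0.28% of all tested genes, and DESeq2 called 0. By unadjusted p under 0.05 there were 3, beside 10.9% of all tested genes. For Tnfrsf4 Treg cells were 9.4-fold above Foxp3- cells in WT and 3.58-fold in DKO, a difference of -1.39 ± 0.45 on the log2 scale with an unadjusted p of 0.00833 and an adjusted p of 0.236 in edgeR. For Tnfrsf8 the difference was 1.51 ± 0.63 (adjusted p = 0.398), for Tnfsf11 -1.84 ± 0.69 (adjusted p = 0.331), for Tnfrsf9 0.60 ± 0.33 (adjusted p = 0.57), and for Tnfsf8 -0.79 ± 0.49 (adjusted p = 0.621). Without DKO Foxp3- replicate 2 the interaction of Tnfrsf9 passed, at 0.97 with an adjusted p of 0.0299, while that of Tnfrsf4 was -0.89, that of Tnfsf11 -0.66, that of Tnfrsf8 1.09 and that of Tnfsf8 -0.41. Without DKO Foxp3- replicate 1 the interaction of Tnfrsf4 passed, at -1.77 (edgeR adjusted p = 0.00948). Over all genes 462 of 16703 passed without replicate 2 and 234 of 16724 without replicate 1. The call of Tnfrsf8 and Tnfrsf9 in Treg but not Foxp3- cells, and of Tnfrsf4 and Tnfsf8 in Foxp3- but not Treg cells, is therefore not shown to be a difference between the cell types, and for Tnfrsf4 and Tnfsf8 the fits of 2 groups alone called them in Treg and not in Foxp3- cells.

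**Figure D4:**
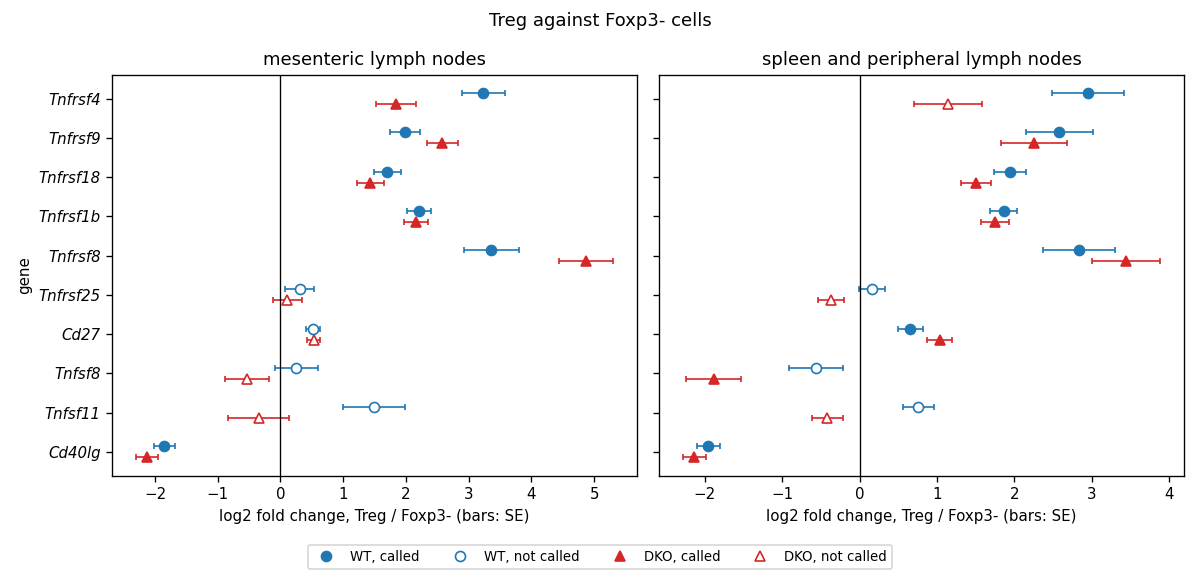
Log2 fold change of Treg over Foxp3- cells (x axis, bars are SE) for the 10 genes (y axis) in WT (blue circles) and DKO mice (red triangles), mLNs on the left and spleen and pLNs on the right, with filled symbols for called genes. Tnfrsf8, Tnfrsf1b, Tnfrsf9 and Tnfrsf18 are called higher in Treg cells in all 4 comparisons and Cd40lg lower, whereas the DKO symbol of Tnfrsf4 in spleen and pLNs is unfilled.

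In spleen and pLNs of WT mice 7 of 10 genes were called between the cell types, beside 4% of all tested genes (2.48% higher and 1.52% lower), and all 10 did not overlap beside 55.3%. Tnfrsf4 (7.73-fold), Tnfrsf8 (7.1-fold), Tnfrsf9 (5.97-fold), Tnfrsf18 (3.85-fold), Tnfrsf1b (3.63-fold) and Cd27 (1.57-fold) were higher in Treg cells, with edgeR adjusted p-values from 1.13e-04 to 0.047. Cd40lg had a log2 fold change of -1.95 ± 0.15 (adjusted p = 2.57e-05). Among those not called, Tnfsf11 was at 0.76 ± 0.20 and Tnfsf8 at -0.56 ± 0.35 (edgeR adjusted p = 0.0532 and 0.583). Tnfsf11 was called in 2 of 8 other settings, and Tnfsf8 in 0. Leaving out any 1 of the 4 WT libraries ended the call of Cd27 (adjusted p from 0.325 to 0.535), and leaving out Treg replicate 1 or either Foxp3- replicate ended those of Tnfrsf4, Tnfrsf8 and Tnfrsf9, with adjusted p-values from 0.0514 to 0.151 and log2 fold changes of 2.27 or more. With all libraries, limma on TPM and the robust prior each ended the calls of Tnfrsf4, Tnfrsf8, Tnfrsf9 and Cd27, a stricter filter on counts those of Tnfrsf9 and Cd27, and limma on TPM that of Tnfrsf18 (adjusted p from 0.0505 for Cd27 with the robust prior to 0.18 for Tnfrsf9 with limma). In DKO mice 7 genes were called beside 3.77% (2.16% higher and 1.61% lower), and all 10 did not overlap beside 32.7%. They were Tnfrsf8 (10.9-fold), Tnfrsf9 (4.77-fold), Tnfrsf1b (3.36-fold), Tnfrsf18 (2.83-fold) and Cd27 (2.05-fold) higher, and Cd40lg (log2 fold change -2.13) and Tnfsf8 (-1.89) lower in Treg cells. Tnfrsf4 was not called in DKO, at a log2 fold change of 1.14 ± 0.44 with an edgeR adjusted p of 0.234. Without DKO Foxp3- replicate 1 it was 2.51 and called, and Tnfsf8 moved from -1.89 to -0.98 while still called. Tnfrsf8, at a log2 fold change of 3.44 with all libraries, was 4.61 without that library and 2.83 without Foxp3- replicate 2. Tnfrsf9 went from 2.25 to 3.40 and 1.63 in the same fits. The calls in DKO were lost without Treg replicate 1 or 2 for Tnfrsf9 (adjusted p = 0.152 and 0.0725) and for Tnfsf8 (0.244 and 0.0646). Both were also lost with a stricter filter on counts (edgeR adjusted p = 0.0779 for Tnfrsf9 and 0.0757 for Tnfsf8), a fit of the 2 groups alone (0.0651 and 0.0831), the robust prior (0.207 and 0.176) and limma on TPM (0.15 and 0.299). The replicate number as a block ended that of Tnfsf8 (0.0515), the 2-group fit that of Cd27 (0.118), and limma on TPM those of Tnfrsf18 (0.0646) and Tnfrsf8 (0.0573). As an interaction none of the 10 genes passed in edgeR (0.00611% of all tested genes did), DESeq2 called 0, and 4 had an unadjusted p under 0.05 beside 5.53% of all tested genes, with log2 differences of -1.17 ± 0.28 for Tnfsf11, -1.81 ± 0.62 for Tnfrsf4, -1.32 ± 0.50 for Tnfsf8 and -0.53 ± 0.24 for Tnfrsf25. That of Tnfrsf8 was 0.61 ± 0.62, and 1.79 without DKO Foxp3- replicate 1. Without DKO Foxp3- replicate 2 the interactions of Tnfrsf4, Tnfsf8 and Tnfsf11 were -2.50, -1.88 and -1.38, and without replicate 1 they were -0.44, -0.41 and -0.93. Each of these fits rests on 1 DKO Foxp3- library. Comparisons within a tissue share libraries with each other, so their values are not independent.

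Among the other genes of the family, the ligands of OX40 and 4-1BB rose in DKO mLN Treg cells. Of 20 other receptors tested, 2 were called higher and 1 lower in DKO, of 13 other ligands 4 higher and 4 lower, and of 14 signalling adaptors 0 higher and 2 lower, where 8.5% of all tested genes were called higher and 3.43% lower. The 6 largest changes among those at 5 CPM or more are given. Tnfsf4, which encodes the OX40 ligand, was at 1.89, 1.08 and 0.295 CPM in WT against 14.2, 6.25 and 5.2 CPM in DKO Treg cells, and all DKO values were above all WT values. The 3 WT libraries held 23, 13 and 3 reads of it. Its log2 fold change was 2.94 ± 0.73 (edgeR adjusted p = 0.0134). Tnfsf9, the gene of the 4-1BB ligand, was at 1.23, 1.32 and 1.57 CPM in WT against 8.4, 5.75 and 3.19 CPM in DKO, a log2 fold change of 2.07 ± 0.53 (adjusted p = 0.0156). Both ligands are also made by antigen-presenting cells, and the 8 myeloid markers summed to 2.85 to 4.77 CPM in WT and 14.9 to 54.7 CPM in DKO mLN Treg libraries. The 8 B cell markers summed to 31.0 to 39.3 CPM in WT and 16.7 to 42.3 CPM in DKO, with 3 called higher and 1 (Cd79b) lower. Among them, Pax5 was at 0 CPM in WT against 0.216 to 2.29 CPM in DKO, and Ebf1 at 0 to 0.0827 against 0.764 to 3.27 CPM. The myeloid markers did not move as one, with 4 of 8 called higher and 0 lower. Cd68 was at 1.18 to 1.57 CPM in WT against 6.25 to 10.8 CPM in DKO, and Itgam at 0.496 to 0.822 against 2.98 to 17.5 CPM. Cd14 and Itgax, at 0 in WT, were at 0.0764 to 1.29 and 0.168 to 0.611 CPM in DKO. Fcer1g was at 36.8 CPM in DKO replicate 3 and at most 0.0764 CPM in the other DKO libraries. Lyz2 was at 0.827 to 2.22 CPM in WT against 0.306 to 0.839 CPM in DKO, and Csf1r was at or below 0.216 CPM in both. Their part in these values was not tested. Without WT replicate 1 the log2 fold change of Tnfsf4 was 3.58. The call of Tnfsf4 was lost without WT replicate 2 (adjusted p = 0.056) or 3 (0.0609), and that of Tnfsf9 without WT replicate 1, 2 or 3 or DKO replicate 1 (0.0502 to 0.0653).

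The other 4 named genes fell in DKO mLN Treg cells. Lta, which encodes lymphotoxin alpha, was at 39.1, 49.4 and 51.7 CPM in WT against 23, 9.34 and 18.8 CPM in DKO (log2 fold change -1.46 ± 0.30, edgeR adjusted p = 0.00485). Tnf itself was at 9.78, 16.1 and 15.9 CPM in WT against 7.64, 6.9 and 9.06 CPM in DKO (-0.83 ± 0.23, adjusted p = 0.0237). Tnfrsf1a, the death-domain receptor for TNF, had a log2 fold change of -0.71 ± 0.21 (adjusted p = 0.0349), and Traf5, an adaptor of OX40 and CD27 among others, -0.92 ± 0.24 (adjusted p = 0.0178). In no case did the genotypes overlap. Lta stayed called without any 1 of the 6 Treg libraries. The call was lost for Tnf (adjusted p up to 0.102) and Traf5 (up to 0.0691) without WT replicate 2 or 3 or DKO replicate 1 or 2, and for Tnfrsf1a (up to 0.129) without any 1 library but DKO replicate 1. All 3 calls were lost with limma on TPM (adjusted p = 0.102 for Tnf, 0.0559 for Traf5 and 0.132 for Tnfrsf1a), and that of Tnfrsf1a with the robust prior (0.0538). In mLN Foxp3- cells edgeR called none of the 20 other receptors, 13 other ligands and 14 adaptors between genotypes. An unadjusted p under 0.05 was found for 4 receptors, 7 ligands and 3 adaptors, beside 18.7% of all tested genes, and DESeq2 called 1 gene (Tnfrsf26).

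**Figure D5:**
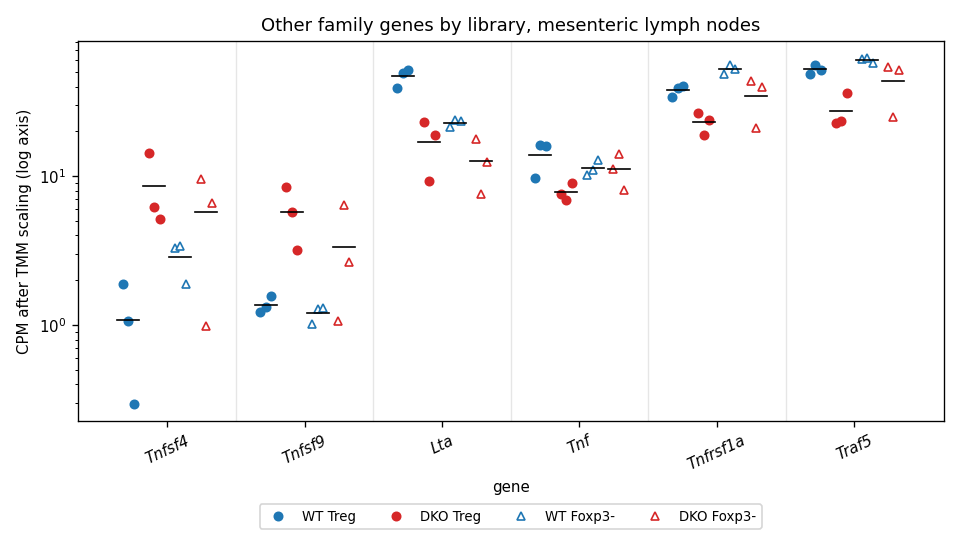
CPM after TMM scaling (log axis) of Tnfsf4, Tnfsf9, Lta, Tnf, Tnfrsf1a and Traf5 in each of the 12 mLN libraries, with symbols and colours as in the plot of the 10 genes. DKO Treg libraries (red circles) lie above WT Treg libraries (blue circles) for Tnfsf4 and Tnfsf9 and below them for the other 4 genes.

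In spleen and pLNs Tnfsf4 was the only other family gene at 5 CPM or more that was called between DKO and WT Treg cells, at 2.0 and 2.16 CPM in WT against 5.84 and 9.63 CPM in DKO (log2 fold change 1.89 ± 0.39, edgeR adjusted p = 0.0359). Leaving out any 1 of the 4 libraries ended that call (adjusted p from 0.063 to 0.487), at log2 fold changes from 1.48 to 2.20. It was called in 4 of 8 other settings, and not with a stricter filter on counts (edgeR adjusted p = 0.119), the robust prior (0.0543), the replicate number as a block (0.0572) or limma on TPM (0.14). Here and below, 1 of the other settings drops the fold minimum and keeps any call by construction. The 10 myeloid markers summed to 2.92 to 4.87 CPM in WT and 12.4 to 35.5 CPM in DKO Treg libraries of this tissue, 2 of them (Csf1r and Itgam) were called higher, and their part in this value was not tested. In Foxp3- cells of this tissue edgeR called 0 of the same 3 lists. An unadjusted p under 0.05 was found for 2 receptors, 6 ligands and 2 adaptors, beside 12.9% of all tested genes, and DESeq2 called 1 gene (Tnfsf4). Between the cell types of WT mice, Lta (2.04-fold in mLNs and 2.63-fold in spleen and pLNs) and Tnfsf10, the gene of TRAIL (1.8-fold and 1.78-fold), were called higher in Treg cells of both tissues. Fasl, the gene of the death ligand FasL (log2 fold change -1.12 and -2.27), and Map3k14, which encodes the kinase NIK of the non-canonical NF-kB pathway (-0.88 and -1.13), were called lower in both. Fas was called higher in WT mLN Treg cells (0.65) and Traf1 in those of spleen and pLNs (0.62). In DKO mice Traf1, an adaptor that binds TRAF2, was called higher in Treg cells of both tissues (0.73 and 0.90), and Map3k14 lower in mLNs (-0.87). Several of the calls in WT rested on all libraries being kept. Those of Lta, Tnfsf10, Fasl, Map3k14 and Traf1 in spleen and pLNs were each lost whichever of the 4 WT libraries was left out (edgeR adjusted p from 0.075 for Fasl to 0.535 for Lta). In mLNs leaving out 1 of the 6 WT libraries ended the call of Fasl in 6 cases (adjusted p up to 0.154), of Lta in 5 (up to 0.109), of Tnfsf10 in 5 (up to 0.0813) and of Fas in 4 (up to 0.0703), and that of Map3k14 in 0. Of 8 other settings, the calls in spleen and pLNs were kept in 4 for Lta and Map3k14, 5 for Fasl and 7 for Tnfsf10 and Traf1, and in mLNs those of Fasl and Lta were each lost in 1 of 9. The calls named in DKO were kept without any 1 library, but the 2-group fit ended that of Traf1 in spleen and pLNs (adjusted p = 0.133) and those of Traf1 and Map3k14 in mLNs (0.050 for each, just above the threshold), and limma on TPM that of Traf1 in spleen and pLNs (0.063).

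For each of the 10 genes the most similar gene in mLNs was sought among 8410 genes averaging 10 CPM or more, by the root mean square difference of centred log2 CPM over the 12 libraries, which share 4 groups. Tnfrsf4 was closest to Tigit, the gene of an inhibitory receptor of T cells, at a difference of 0.33, where Tnfrsf4 itself had an SD of 1.52 over the libraries. Tnfsf11 was closest to Izumo1r, the gene of folate receptor 4 (difference 0.26, SD 0.81). Tnfrsf1b was closest to Vav2 (0.26, SD 1.11), Tnfrsf9 to Adap1 (0.37, SD 1.24), Tnfsf8 to Plekho1 (0.36, SD 0.76) and Cd40lg to Dse (0.21, SD 1.0). Tnfrsf18 was closest to H2afz (0.12, SD 0.84), Cd27 to Eif5a2 (0.08, SD 0.29) and Tnfrsf25 to Mllt3 (0.17, SD 0.29). Tnfrsf8 was closest to Fam160a1 (0.65, SD 2.1).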

How the data were processed

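RNA was sequenced from 20 samples of sorted T cells (12 from mLNs, 8 from pooled spleen and pLNs). Per the labels and the study's methods, reads of a stranded mRNA library were aligned to mm9 with TopHat2 (2.1.1) and the deposited counts are strand-specific reads per RefSeq gene from featureCounts (Subread 1.4.3-p1). The authors also deposited TPM values, whose calculation is not given in the sources used here. Counts were tested with edgeR 4.0.16 (R 4.3.3): genes with at least 1 read per table, TMM scaling, quasi-likelihood F tests in 1 fit of 4 groups without a block, called at Benjamini-Hochberg adjusted p ≤ 0.05 and fold ≥ 1.5 (interaction: adjusted p only). DESeq2 1.42.0 and limma 3.58.1 served as alternatives, the latter on log2(TPM + 1). The edgeR steps were tested on simulated data.

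The members and lists were chosen with earlier results of these data known. All 10 members are named in every comparison. From the other family lists, those called and averaging 5 CPM or more where higher are named, up to 6 per comparison by size. Log2 fold changes are printed where a gene was called, had an unadjusted p under 0.05 or a size of at least 0.5. The study describes replicates as biological and both cell types of the spleen and pLN DKO groups as taken from the same littermates, but the labels do not tie replicate numbers to mice, and p-values measure the spread between these samples. In mLNs, deviations from group means of same-numbered Treg and Foxp3- libraries correlated in all 6 pairs (r from 0.138 to 0.544), so that for comparisons of cell types, fits with that number as a block are given beside a result whose call they change. Counting precision is limited by the depth per library given above, and floors (3 counts) cover counting error only.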

Additional observations from a re-analysis of the deposited data

Results flagged for a closer look

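In spleen and pLNs, Tnfsf11 and Tnfrsf25 lay on opposite sides of WT in DKO Treg and DKO Foxp3- cells in every library, beside 3.88% of all tested genes. For Tnfsf11 both DKO Treg libraries (47.3 and 59 CPM) were below both WT Treg libraries (95.2 and 81.2 CPM), and both DKO Foxp3- libraries (81.7 and 59.9 CPM) were above both WT ones (58.6 and 45.7 CPM). The difference of the 2 effects was -1.174 on the log2 scale with an edgeR adjusted p of 0.48, and it did not pass. In mLNs, where 0 of the 10 genes lay on opposite sides in this way (0.876% of all tested genes did), DKO Treg libraries of Tnfsf11 (48.3, 74 and 42.9 CPM) overlapped the WT ones (69.3, 73.9 and 71.3 CPM). There the difference of the effects was -1.84 (adjusted p = 0.331), and it rested in part on DKO Foxp3- replicate 2, without which it was -0.66. For Tnfrsf25 the DKO Treg libraries were at 35.7 and 43 CPM against 47.3 and 45.7 CPM in WT, and the DKO Foxp3- libraries at 57.3 and 44.1 CPM against 41.7 and 41.5 CPM. The difference of the effects was -0.5286 with an edgeR adjusted p of 0.902. In mLNs Tnfrsf25 was at 61.9, 27.7 and 35.9 CPM in DKO Treg cells, on both sides of WT (44.1, 42.9 and 40.2 CPM).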

How the results depend on the processing

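Over the 10 genes and 10 comparisons, 30 results were called. Dropping the fold minimum, 1 of the alternatives counted next, keeps each of these 30 called by construction and is no check on them. Under alternative tools, filters, scalings, blocks and thresholds, 224 of 252 repeats of these stayed called, and 125 of 152 with 1 library left out. In mLN Treg cells, where 2 genes were called between genotypes, 4 were called in a fit of the 2 groups alone (also Tnfrsf4 and Tnfsf8), and 1 to 2 with 1 library left out. Over all genes the main fit called 2001 of 16784, the 2-group fit 2485 of 16161, and the fits without 1 library 1325 to 1946. In mLN Foxp3- cells, against 2 called, the robust prior gave 1, the 2-group fit 0, limma on TPM 0, and leaving out 1 library 0 to 3. Over all genes these fits called 323 of 16784, 2 of 15795, 20 of 16784 and 57 to 1453, against 575 of 16784 in the main fit. The mLN interaction gave 0 to 1 with 1 library left out, where 9 to 462 of all genes passed, against 47 in the main fit. In spleen and pLN Treg cells, against 0, DESeq2 gave 1, the replicate block 1 (Tnfrsf8, edgeR adjusted p = 0.0439) and the 2-group fit 3. Over all genes these fits called 648 of 16357, 296 of 16357 and 1256 of 15595, against 285 of 16357 in the main fit. In Foxp3- cells, against 0, DESeq2 gave 2, where 376 of 16357 genes were called, against 134 in the main fit. Without 1 library the log2 fold changes moved as given above. Between cell types in WT, against 7, DESeq2 and the 2-group fit each gave 8, the stricter filter 5, the robust prior 3 and limma on TPM 2. Over all genes these fits called 788 of 16357, 2060 of 15034, 379 of 11671, 483 of 16357 and 188 of 16357, against 654 of 16357. In DKO, against 7, the 2-group fit gave 4 and limma on TPM 3, where 190 of 15665 and 265 of 16357 genes were called, against 617 of 16357. The interaction there gave 0 in every setting with all libraries, where at most 11 genes of the table passed (DESeq2). The causes of these changes were not tested.

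Of the 100 log2 differences of the 10 genes, 61 met the rule for printing, and 3 of these, not called, turned direction with 1 library left out. Of the other 39, 26 changed sign under some setting. Between genotypes in spleen and pLN Foxp3- cells Tnfrsf8 ran from -0.25 to 1.54 and Tnfrsf9 from -0.0839 to 1.70, the lowest without DKO replicate 1 and the highest without DKO replicate 2. The interaction of Tnfrsf8 there ran from -0.001 to 1.79, the lowest without DKO Foxp3- replicate 2. Same-numbered libraries of the 2 genotypes in mLNs correlated at -0.053 to 0.159 in Treg and 0.043 to 0.234 in Foxp3- cells, so those numbers were not taken as pairs, and the replicate block left 2 genes called in each. In spleen and pLNs, where each group has only 2 numbers, same-numbered libraries of the 2 genotypes correlated at 0.305 in Treg and 0.298 in Foxp3- cells. Those of the 2 cell types correlated there at 0.319 in WT and 0.309 in DKO. What these numbers share was not tested, and the main fit has no block. The block gave 6 called against 7 between cell types in DKO (without Tnfsf8). The nested block (added after seeing the data, like the TPM test) changed 1 call, that of Tnfsf11 in WT mLNs. Scaling by TPM in place of TMM shifted DKO Treg groups by 0.18 (mLNs) and 0.22 (spleen and pLNs) and WT Foxp3- groups by -0.12 and -0.18 on the log2 scale relative to the table.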
